A study of Mus musculus with 24 samples.

Results

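The arrays described here are the 8 of the series that followed CHOP-/- mouse embryonic fibroblasts into early stress of the endoplasmic reticulum (ER), 4 taken after 4 h of tunicamycin and 4 from untreated cells. They were chosen by their titles from 24 arrays in 6 groups, each group with arrays lettered A to D. The cells of all 24 were primary mouse embryonic fibroblasts (MEFs), cultured cells that are not an established line, and total RNA was measured on a mouse oligonucleotide array. The treated group was CHOP-/- with tunicamycin at 2 µg/ml for 4 h, and its control was CHOP-/- without the drug, so that both groups lacked CHOP. Other groups served for comparison and are named where they are used: CHOP-/- cells after 8 h at the same dose, wild type cells after 4 h and untreated wild type cells. The labels do not say how the allele was made, whether arrays with different letters were separate cultures, or whether the untreated cells received solvent or were kept for the same time. The p-values therefore measure only the spread between these samples, and a change after tunicamycin cannot be told apart from a change with time or handling.

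Ddit3 encodes CHOP, a transcription factor of the unfolded protein response. Tunicamycin blocks the first step of N-linked glycosylation, so that newly made glycoproteins misfold in the ER. Sensors in the ER membrane respond. PERK phosphorylates eIF2α, which slows translation in general but raises translation of ATF4, an activator of amino acid and feedback genes and of Ddit3 itself. IRE1 splices the mRNA of XBP1, and ATF6 is cut to release a transcription factor, and both of these raise chaperones, folding enzymes and the machinery of ER-associated degradation.

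Ddit3 was measured first. Its probe set gave signals of 33.4, 15.6, 40.4 and 36.9 on CHOP-/- 4 h arrays A to D, against 7.1, 12.4, 32.3 and 6.9 on the untreated CHOP-/- arrays, 2774, 4397, 3379.7 and 4059 on the wild type 4 h arrays and 296, 216, 437 and 249.9 on the untreated wild type arrays. No CHOP-/- array reached the lowest wild type array. Of the CHOP-/- arrays, 2 of the 4 at 4 h and all 4 untreated ones lay under 33.7, the signal under which probe sets were not tested on average. The CHOP-/- 4 h arrays were 6.73 lower than the wild type 4 h arrays on the log2 scale, with an exact two-sided permutation p of 0.0286, the smallest that 4 arrays against 4 can give. Within CHOP-/- cells the 4 h and untreated arrays overlapped, and the difference of 0.92 did not pass (exact two-sided permutation p = 0.0571, limma adjusted p = 0.259). The sources used here do not give the stretch of Ddit3 that the probes match, nor whether the deletion covers it.

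Most fibroblast markers were well measured, but not all. Col1a1, which encodes a chain of type I collagen, lay between 6447 and 10201 on the 4 h arrays and between 5558 and 10224 on the untreated arrays, and Thy1 lay between 2865 and 5024 and between 3047 and 3708. The probe set of Vim, which encodes the intermediate filament vimentin, lay between 13.5 and 34.8 at 4 h and between 14 and 30.8 untreated, at or near the limit for testing. None of the 15 tested fibroblast markers was called. Among markers of other cells, Ptprc of leukocytes, Epcam of epithelium, and Pecam1 and Cdh5 of endothelium were under 33.7 on all 8 arrays. Other markers of the same lists had signal. Epithelial Cdh1 lay between 119 and 151 at 4 h and between 107 and 129 untreated, endothelial Eng between 528 and 969.9 and between 659 and 774, endothelial Flt1 between 179.8 and 309 and between 199 and 302, and leukocyte Lyz2 between 60.4 and 229 and between 53.1 and 278. The 9 leukocyte markers, 10 muscle markers and 2 endothelial markers that could be tested included none that was called, and the summed leukocyte signal ranged from 768 to 1728 at 4 h and from 736 to 1852 untreated. The array medians lay between 58.8 and 65.3 at 4 h and between 54.7 and 67.7 untreated. The ratio of 3' to 5' signal on the actin control was 1.05 to 1.1 at 4 h and 1.06 to 1.24 untreated. In bulk RNA, fewer cells of a type and less RNA per cell cannot be told apart.

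The 4 arrays at 4 h were not alike. On the first principal component of all 24 arrays, which held 23.2% of the variance, 4 h arrays A and B scored -0.7 and -0.9 while C and D scored -19.2 and -13.7. The CHOP-/- 8 h arrays scored 13.1 to 16.3 on it, and the untreated CHOP-/- arrays -22.6 to -11.3. Arrays C and D thus lay within the range of the untreated CHOP-/- arrays on this axis. The untreated arrays differed too. The signal of Fos, an AP-1 gene that rises within minutes of handling or serum, was 81.2, 103, 192 and 153 on 4 h arrays A to D, against 287, 1415, 96.6 and 1705 on the untreated arrays. No label gives a batch, a date or a culture for any array, and the part of these splits in the results was not tested. Values are therefore given array by array for the genes the results turn on.

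After 4 h of tunicamycin, cells without CHOP had raised genes that relay and dampen ER stress, together with some chaperone, chemokine and NF-kappaB genes. They had lowered some genes of cell division and a varied set of others. In all, limma called 99 of 6500 probe sets (1.52%) at a Benjamini-Hochberg adjusted p under 0.05, of which 66 were higher and 33 lower. They stood for 60 genes that rose and 32 that fell. Changes of 2-fold or more were seen in 35 of the probe sets. Before adjustment, 750 probe sets had a p under 0.05. The arrays of the groups did not overlap in 360 probe sets (5.54%), and 89 of the 99 were among these. Counted by gene, with the brightest probe set standing for its gene, 55 of 5483 genes were higher (1.0%) and 29 were lower (0.529%), and the median log2 change over all genes was 0. The count of 99 fell to 60, 61 or 64 without untreated array A, B or C, and to 59 or 58 without 4 h array B or D. In a fit of these 8 arrays alone, which estimates the spread from fewer samples, 25 were called.

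The largest and firmest change was in Herpud1, whose product sits in the ER membrane and serves ER-associated degradation. Its signal was 5367, 4171, 4942 and 4060.1 on 4 h arrays A to D, against 545, 708, 631 and 796 on the untreated arrays. All 4 treated arrays lay far above all 4 untreated ones, and they lay close to each other. The means were 4635 ± 626 and 669.9 ± 107 (SD, n = 4 each), a 6.83-fold rise or 2.77 on the log2 scale (SE 0.11, limma adjusted p = 8.11e-15). Across 20 other settings of the fit this log2 change stayed between 2.67 and 2.86.

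The list named stress feedback genes, which also holds secreted factors such as Vegfa and Stc2, had the most calls of any list. Of 15 tested genes of this list, 9 rose and none fell, against 1.0% of all genes that rose, and the median log2 change was 0.89. The gene lists were chosen with earlier results of these data known, so their counts are a description and no independent test. Dnajc3 was 1 of the 9 and is counted again among the ER chaperones below. Without single arrays the number of the 15 that rose was between 6 and 9. Gadd45a, a stress-inducible regulator of growth arrest and DNA repair, gave 1277, 1351, 671 and 844 at 4 h and 184, 313, 198 and 367 untreated, with no overlap (1.97 log2, adjusted p = 9.99e-06). Its relative Gadd45b rose by 1.31 (adjusted p = 0.0217). Siah2, a ubiquitin ligase gene, gave 501, 467, 291 and 309 against 123, 104, 177 and 125, a rise of 1.55 on the log2 scale (adjusted p = 4.64e-05). Trib3, which encodes a pseudokinase induced by ATF4, gave 560, 631, 635 and 665 at 4 h, against 181, 300.4, 169.5 and 391 untreated. The treated arrays of Trib3 were closely spaced and the untreated ones were not, and the rise was 1.34 (adjusted p = 0.00889).

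Ppp1r15a encodes GADD34, which brings a phosphatase to eIF2α and so ends the translational block. Its signals were 605, 486, 396 and 454 at 4 h and 211, 249, 141 and 347 untreated, without overlap, and the rise was 1.09 log2 (SE 0.20, adjusted p = 0.00394). This gene is known as a target of CHOP, and it rose here in cells that lack CHOP. Ddit4, an inhibitor of mTOR signalling, rose by 0.89 (adjusted p = 0.00914). Vegfa, the endothelial growth factor, gave 1158, 1048, 721 and 693 at 4 h and 467, 453, 320.5 and 264 untreated, a rise of 1.29 (adjusted p = 0.00104). Stc2, a secreted glycoprotein gene induced through PERK, rose by 0.78 (adjusted p = 0.0449), with array C (53.8) next to the highest untreated array (53.1) and the other treated arrays from 90 to 102.

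**Figure D1:**
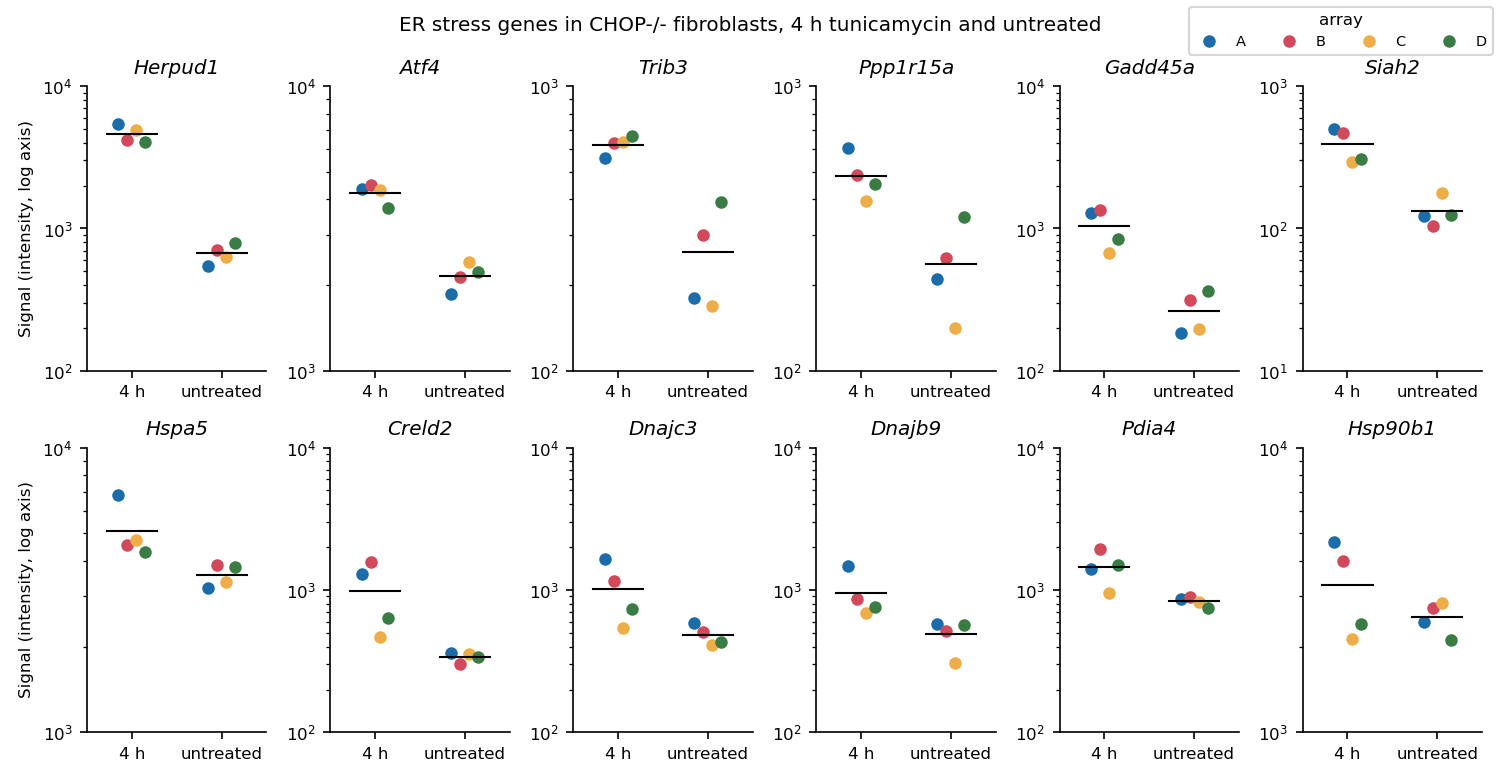
Signals of 12 ER stress genes on the CHOP-/- arrays, on a log axis, with the 4 h arrays left of the untreated ones, coloured by array letter, and the mean as a line. Herpud1 and Atf4 show no overlap and little spread, while 4 h arrays C and D sit below A and B for Creld2, Dnajc3, Dnajb9 and Hsp90b1.

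Of 18 transcription factors of the stress response and of the ATF4 and C/EBP families, 4 rose and none fell, with a median of 0.22. Atf4 gave 4338, 4493, 4329 and 3724 at 4 h, against 1859, 2143, 2402 and 2226 untreated, a 1.91-fold rise (log2 0.93, SE 0.10, adjusted p = 3.09e-06). Nfil3, a basic leucine zipper repressor, was read by a pair of probe sets that rose by 1.67 and 1.51 (adjusted p = 9.99e-06 and 0.000236). Xbp1, the substrate of IRE1, gave 1881, 2088, 2041 and 1990.5 at 4 h and 1228, 1297, 1052 and 1588 untreated and rose by 0.63 (adjusted p = 0.0114). The array does not tell spliced from unspliced Xbp1. Cebpg, a partner of ATF4, rose by 0.50 (adjusted p = 0.0367). Atf3, a stress factor of the same family, was not called. Its brighter probe set gave 537, 631, 1224 and 1248 at 4 h, against 226, 632, 100 and 1190 untreated, and the 2 groups overlapped (log2 difference 1.24, adjusted p = 0.361). The untreated arrays B and D, where Atf3 was high, were also those with high Fos. Cebpd and Cebpb differed by 0.75 and 0.55 and did not pass (adjusted p = 0.104 and 0.338).

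The genes that fold proteins in the ER moved less evenly. Of 23 genes listed as ER chaperones and folding factors, 5 rose and none fell. They were the folding genes Creld2, Dnajc3, Dnajb9 and Manf, and Rabepk, which is no folding factor. The list had a median of 0.16 against 0 over all genes, and 3 rose without 4 h array A or B or untreated array B or C, against 6 without 4 h array C. Creld2, an ER protein gene that is raised by unfolded protein, gave 1292, 1561, 465 and 634 on arrays A to D at 4 h and 360.2, 302, 356 and 341 untreated. Arrays A and B were above 1200 and array C was close to the untreated level, and the rise was 1.40 (SE 0.25, adjusted p = 0.00354). Dnajc3, the p58IPK co-chaperone that also inhibits PERK, gave 1650.2, 1164, 544 and 734 against 589, 509.9, 409.9 and 429.7. It rose by 0.97 on this probe set, where array C overlapped the untreated arrays, and by 1.33 on another (adjusted p = 0.0398 and 0.0363). These calls were lost in 11 of 20 and in 8 of 19 other settings. On 1 more tested probe set Dnajc3 differed by 0.56 and was not called (adjusted p = 0.402). Dnajb9, the BiP co-chaperone ERdj4, gave 1478, 869, 685 and 755 against 577, 519, 305 and 571 and rose by 0.92 (adjusted p = 0.0363). Its dimmer probe set rose by 1.84, with 653, 476, 105 and 229.7 at 4 h and 154, 51.1, 83.3 and 67.8 untreated (adjusted p = 0.0246), and there array C lay within the untreated range. Manf, a secreted factor retained by BiP, rose by 0.72 (adjusted p = 0.00999).

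Rabepk, a neighbour of Hspa5 in the genome that the list held beside the folding genes, gave 110.4, 138, 42.3 and 70.5 at 4 h and 23.3, 11.3, 12 and 19.6 untreated. All untreated arrays lay under 33.7. With them set to that signal the rise was at least 2.34-fold, and the fitted log2 change of 2.03 is no exact size (adjusted p = 0.000149). Hspa5 itself, which encodes BiP, gave 6819, 4549, 4730.5 and 4288 at 4 h against 3225, 3861, 3378 and 3792 untreated. The groups did not overlap, but the change of 0.38 missed the threshold (adjusted p = 0.0619). It passed in 3 of 20 other settings, and the adjusted p was as high as 0.41 among the 20. Those that passed were without 4 h array C, without untreated array D and with the array letters fitted as a block (adjusted p = 0.016, 0.0387 and 0.0493). Hsp90b1, which encodes GRP94, gave 4653, 4000.5, 2131 and 2411 at 4 h and 2434, 2723, 2857 and 2119 untreated and was not called (0.25, adjusted p = 0.69). Arrays A and B exceeded every untreated array for Hsp90b1, and C and D did not.

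Of 18 disulfide isomerases and ER oxidases, Pdia4 rose, by 0.78 (adjusted p = 0.0367), with 1402, 1929, 951 and 1507 at 4 h and 869.5, 893, 827 and 749.5 untreated. This call was lost in 11 of 20 other settings (adjusted p up to 0.168), among them the loss of any single array other than 4 h array C. Ero1b, an oxidase that recharges disulfide isomerases, gave 105, 95.3, 19.4 and 40.5 against 34.3, 16.3, 15.8 and 20.7. Its difference of 1.14 did not pass (adjusted p = 0.137), and without array C it was 1.57 and passed (adjusted p = 0.00734). Ero1a, reported to depend on CHOP, differed by 0.11 and 0.20 on its probe sets (adjusted p = 0.86 and 0.852). In ER-associated degradation, 2 of 21 genes rose. They were Herpud1 and Sel1l, the adaptor of the HRD1 ubiquitin ligase, which rose by 0.57 on its brighter probe set (adjusted p = 0.0367) and differed by 0.79 on the other (adjusted p = 0.209). The count of 2 became 3 without 4 h array C, stayed 2 without untreated array B and was 1 without any other single array. Derl1, a part of the same channel, differed by 0.44 (adjusted p = 0.134).

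The split between arrays was not the same for all stress genes. Set against the mean of the untreated arrays, Herpud1 was 2.90, 2.78, 2.72 and 2.69 higher on 4 h arrays A to D on the log2 scale, Atf4 was 0.88, 1.18, 0.83 and 0.84 higher, and Trib3 was 1.18, 1.33, 1.40 and 1.44 higher. These genes were thus raised on arrays C and D by nearly as much as on A and B, or by more. Creld2 was 1.91, 2.24, 0.52 and 0.91 higher, Dnajc3 1.78, 1.28, 0.22 and 0.62, and Rabepk 2.49, 2.74, 1.15 and 1.75. Gadd45a was 2.31, 2.40, 1.42 and 1.74 higher and lay between. Nfil3 ran the other way, at 1.24, 1.28, 1.88 and 1.65. The split was noticed in these data and no test of it was made.

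**Figure D2:**
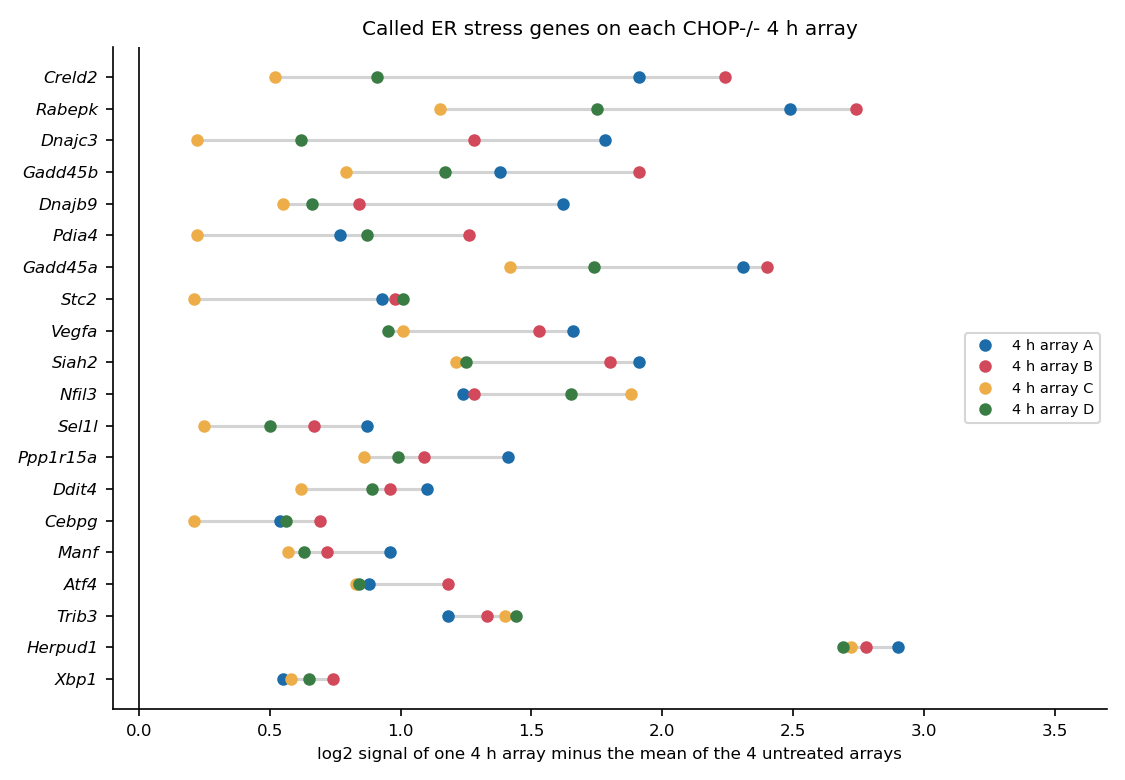
Called ER stress genes, ordered by the spread between the 4 arrays at 4 h. Each point is the log2 signal of 1 CHOP-/- 4 h array minus the mean of the 4 untreated CHOP-/- arrays, and array C is the lowest for Creld2, Rabepk and Dnajc3 while all 4 arrays lie close together for Herpud1, Trib3 and Xbp1.

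Few genes of other ER and ATF4 functions were called at 4 h. Of 23 N-glycosylation genes, Gmppb rose, by 0.58 (adjusted p = 0.0424). It encodes a subunit that makes GDP-mannose, and its call was lost whichever single array was left out. Of 11 genes of glycosylphosphatidylinositol (GPI) anchor synthesis, Piga rose and no other was called. Piga, the catalytic subunit of the first step, gave 455, 488, 302 and 409 at 4 h and 104, 105, 115 and 109.5 untreated, a rise of 1.90 (SE 0.15, adjusted p = 2.71e-08), and its other probe set rose by 1.85. None of 67 genes of ER translocation and ER-Golgi transport was called, and the median was 0.06, with Lman2 closest (0.39, adjusted p = 0.0571). None of 9 amino acid synthesis genes and none of 20 aminoacyl-tRNA synthetases was called, with medians of 0.10 and 0.20. Asns, the asparagine synthetase gene and a classic ATF4 target, gave 4409.5, 3810.4, 4869.8 and 4263 at 4 h and 3028, 3986, 4999 and 3325 untreated (0.10, adjusted p = 0.789). Wars, a tryptophanyl-tRNA synthetase gene, differed by 0.49 (adjusted p = 0.0571). Of 10 amino acid transporters, Slc3a2, the heavy chain of several of them, rose by 0.48 (adjusted p = 0.0367), and the count was 0 without any single array other than 4 h array C or untreated array D.

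Promoter sequence was set beside these changes. RefSeq promoter windows on GRCm38.p6, from 250 bases before to 50 after the start of transcription, were at hand for 49 of the 60 genes that rose, 24 of the 32 that fell and 4461 of 5483 tested genes. They were searched on both strands for the ER stress response element ERSE (CCAAT and CCACG with 9 bases of any kind between them), for ERSE-II (ATTGG and CCACG with 1 base between them), for the element bound by spliced XBP1 (UPRE, TGACGTGG) and for the C/EBP-ATF response element read by ATF4 (CARE, TGATGNAA). Each motif was searched separately, so matches may overlap. Windows are printed for 4 called stress genes that hold a motif and for Hspa5, the textbook case, with the matched letters in capitals.
Herpud1, chr8:94386179-94386428, plus strand: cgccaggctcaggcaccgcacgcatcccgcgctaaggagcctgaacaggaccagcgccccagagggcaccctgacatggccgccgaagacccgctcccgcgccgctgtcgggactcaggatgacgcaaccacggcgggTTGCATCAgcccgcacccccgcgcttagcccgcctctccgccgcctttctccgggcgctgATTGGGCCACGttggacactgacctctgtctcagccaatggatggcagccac
Creld2, chr15:88819490-88819568, plus strand: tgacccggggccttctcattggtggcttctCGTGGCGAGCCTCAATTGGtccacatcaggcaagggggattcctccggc
Dnajc3, chr14:118937797-118937875, plus strand: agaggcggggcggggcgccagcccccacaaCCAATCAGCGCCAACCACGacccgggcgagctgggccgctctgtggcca
Hspa5, chr2:34771995-34772073, plus strand: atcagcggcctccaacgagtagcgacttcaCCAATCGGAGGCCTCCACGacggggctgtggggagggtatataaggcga
Trib3, chr2:152344029-152344056, minus strand: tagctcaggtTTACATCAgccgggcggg
The Herpud1 window, printed up to the start of transcription, holds a CARE on its minus strand at -112 to -105 and an ERSE-II at -52 to -42. Creld2 holds an ERSE read on the minus strand, Dnajc3 and Hspa5 hold one on the plus strand, and the 28 bases of Trib3 hold a CARE on the minus strand at 15 to 22 after the start.

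An ERSE lay in 2 of the 49 genes that rose (4.08%), in 0 of the 24 that fell and in 11 of the 4461 tested genes (0.247%), and the share over all 27025 promoters was 0.137%. ERSE-II lay in 1, 0 and 7 of them. A UPRE lay in 3 of the 49 (6.12%), 0 of the 24 and 56 of the 4461 (1.26%), and a CARE in 3 (6.12%), 2 (8.33%) and 125 (2.80%). Taken by sequence rather than by response, 18 tested genes held an ERSE or ERSE-II. At 4 h, 3 of them rose (Herpud1, Creld2 and Dnajc3), none fell, and their median log2 change was 0.30. Several folding genes with the motif were not called at 4 h: Hsp90b1 with a pair of ERSE, Pdia6 (0.40, adjusted p = 0.51), Canx (-0.08, adjusted p = 0.936) and Dnajb11 with ERSE-II (0.24, adjusted p = 0.685). At 8 h in the same cells 11 of the 18 were called higher and their median was 0.96. Over all tested genes, 1.0% were called higher at 4 h and 7.28% at 8 h. The 4 h and 8 h responses share the untreated arrays. A match is a description of letters, not a binding site.

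Genes of inflammation were raised as well. Of 14 NF-kappaB subunits and inhibitors 2 rose, Tnfaip3 and Relb, and the median of the list was 0.42. Tnfaip3, the ubiquitin-editing enzyme A20 that restrains NF-kappaB, gave 259, 208, 464 and 200.4 at 4 h, against 79.3, 172, 47.3 and 105 untreated, with the highest value on array C (1.53, adjusted p = 0.0292). Relb, an NF-kappaB subunit, rose by 0.84 (adjusted p = 0.0374). Of 19 chemokines and cytokines, 4 rose and none fell, with a median of 0.36. Ccl2, a chemokine for monocytes, gave 6079.9, 4426, 5921 and 4743 at 4 h, against 3203, 3318, 2929.5 and 2802 untreated, without overlap (0.68, adjusted p = 0.013). Ccl7 rose by 0.92, and Csf1, the macrophage growth factor, by 0.55 (adjusted p = 0.0367 and 0.0367). Cxcl1, a chemokine for neutrophils, gave 1422, 1105, 2658 and 1977 against 442, 716, 399 and 1131 and rose by 1.46 (adjusted p = 0.0367), although untreated array D overlapped. The call of single members depended on the arrays. The count of chemokines fell to 1 without 4 h array A, C or D or untreated array A or C, to 2 without untreated array B, and to 0 when arrays were centred on their median. The NF-kappaB count fell to 0 without 4 h array A or C or untreated array A or C, and to 1 without 4 h array B or untreated array B or D. None of the 9 tested leukocyte markers was called. Ptprc was under 33.7 on all 8 arrays, but Lyz2 lay between 60.4 and 229 at 4 h and between 53.1 and 278 untreated. The SE of the Lyz2 change was 0.93 on the log2 scale, so a change could be missed. Whether leukocytes had a part in these rises was not tested.

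**Figure D3:**
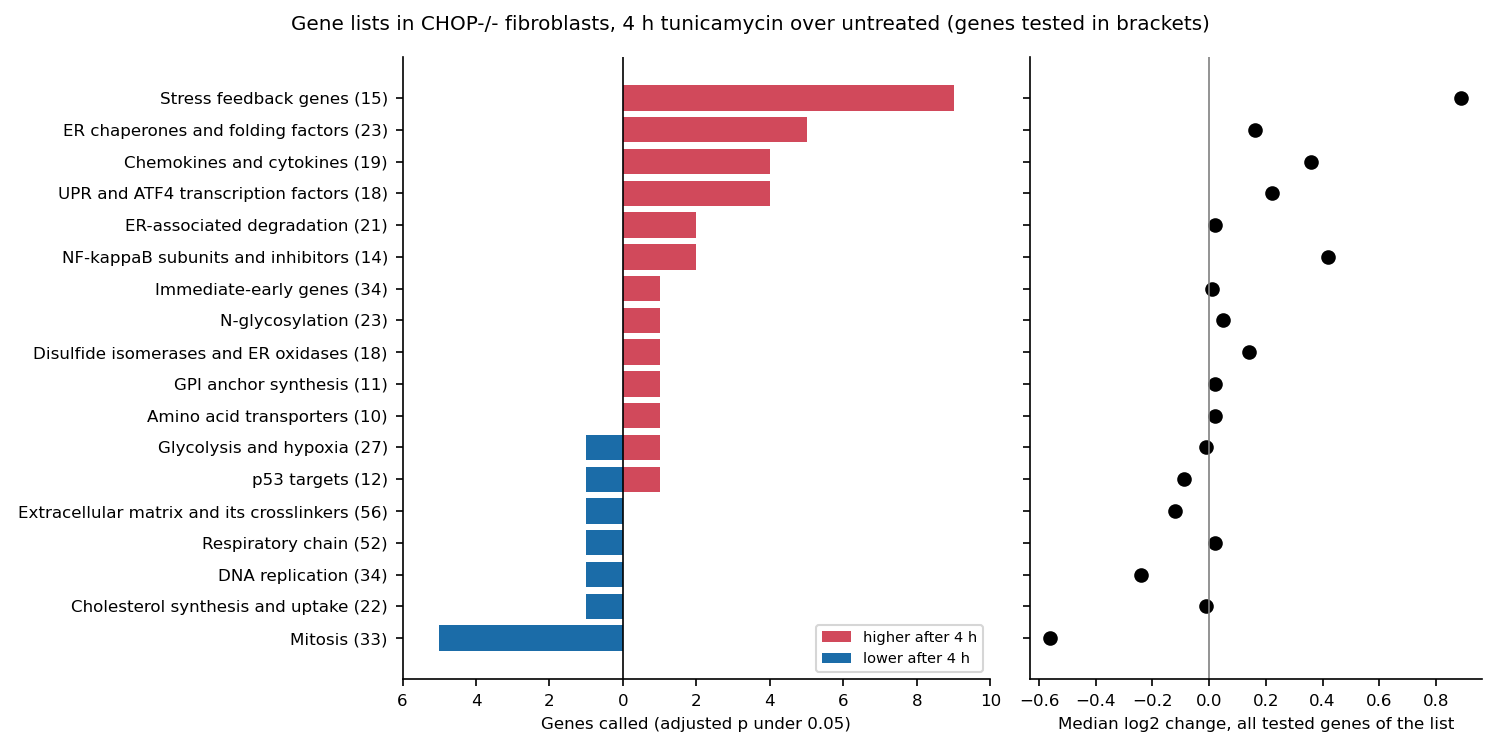
Gene lists with at least 1 called gene in CHOP-/- cells after 4 h. Bars to the right count genes that rose and bars to the left genes that fell, and the points give the median log2 change of all tested genes of the list, which is highest for stress feedback genes (0.89) and lowest for mitosis genes (-0.56).

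Besides these, the rule for the largest rises named Txnip, an inhibitor of thioredoxin that is raised by ER stress, with 1505, 1303, 1246 and 1075 at 4 h and 542, 605, 462 and 724 untreated (1.17, adjusted p = 9.99e-06). The other tested probe set of Txnip differed by 0.20 and was not called (adjusted p = 0.808). Of 34 tested immediate-early genes, Tnfaip3 rose, none fell and the median was 0.01. Myc differed by 0.94 and Fos by -1.94 (adjusted p = 0.0748 and 0.176). Of 12 p53 targets, Gadd45a rose and Zmat3, a zinc finger protein gene, fell (-0.58, adjusted p = 0.0198). Of 27 glycolysis and hypoxia genes, Vegfa rose and Adm fell. Without single arrays the immediate-early count was between 0 and 2, with 0 without 4 h array A or C or untreated array A or C and 2 without untreated array D. The count of p53 targets that fell was 0 except without 4 h array B or untreated array C, and that of glycolysis and hypoxia genes that fell was 0 except without 4 h array C or untreated array C.

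Some cell division genes fell. Of 33 tested mitosis genes, 5 fell, none rose, and 32 had a negative log2 change, with a median of -0.56 against 0 over all genes. Mki67, the proliferation antigen, gave 88.8, 88.1, 54.2 and 95.5 at 4 h, against 157, 139, 350.5 and 171 untreated (-1.20, SE 0.26, adjusted p = 0.0165). The groups did not overlap, and untreated array C was the highest by far. Kif2c, a kinesin that takes microtubules apart at centromeres, gave 63, 64.5, 66.8 and 66.4 against 125, 109.7, 212 and 94.1 (-0.95, adjusted p = 0.0164). Kif23 and Anln, which act in cytokinesis, fell by 0.92 and by 0.73 on the log2 scale (adjusted p = 0.0496 and 0.0148), and Smc2, a condensin subunit, fell by 0.98 (adjusted p = 0.0367). Ect2, an exchange factor for cytokinesis, fell by 0.97 (adjusted p = 0.0496). The call of Ect2 was lost in 16 of 20 other settings and that of Kif23 in 14 of 19. Pclaf, a factor that binds the replication clamp PCNA, gave 83.9, 90.7, 82.8 and 93.9 at 4 h and 214, 204, 291 and 185 untreated. It was closely spaced in the treated group and fell by 1.28 (adjusted p = 0.000236).

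Untreated array C stood apart in these genes. Over the 33 mitosis genes, the median log2 value relative to the untreated mean was -0.63, -0.62, -0.35 and -0.48 on 4 h arrays A to D, against -0.16, -0.14, 0.46 and -0.20 on the untreated arrays. All 4 treated arrays were thus below all 4 untreated ones by this summary. The number of mitosis genes that fell was 0 without untreated array C, 3 without untreated array A, 3 without 4 h array A, B or D, and 7 without untreated array D. Of 34 DNA replication genes, Rpa3, a subunit of the single-strand binding protein, fell by 0.87 (adjusted p = 0.0367), and the median was -0.24. The replication count was 0 without any single 4 h array or untreated array B or C, and 2 without untreated array D. None of 19 G1 cyclins and inhibitors was called. None of the 8 smooth muscle and 15 fibroblast markers tested was called.

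The other large falls were in genes of varied function. Gas1, a membrane protein linked to growth arrest and Hedgehog signalling, gave 49.2, 71.5, 48.2 and 69.3 at 4 h and 163, 172, 184 and 207 untreated, and fell by 1.56 on the log2 scale (SE 0.23, adjusted p = 0.000299). Synpo, which encodes an actin-associated protein, gave 97.4, 80.1, 115 and 105 against 223, 238, 266 and 196 and fell by 1.16 (adjusted p = 0.00131). Adm, the vasodilator adrenomedullin, gave 33.5, 29.1, 79.2 and 47.8 against 118, 98.4, 83.9 and 142 and fell by 1.20 (adjusted p = 0.0381), with array C the highest of the treated arrays and 2 of the 4 treated arrays under 33.7. Nr2f1, a nuclear receptor, and Dab2, an endocytic adaptor, fell by 1.06 and by 1.02 (adjusted p = 0.0478 and 0.0319). That is 1 of 3 Dab2 probe sets, and the others differed by -0.52 and -0.27 (adjusted p = 0.579 and 0.8). Nr2f1 gave 28, 34.5, 15.6 and 25 at 4 h and 66, 68.7, 35.8 and 61.4 untreated, with 3 of the 4 treated arrays under 33.7, so its fall is no exact size. Lrp6, a Wnt co-receptor, gave 149, 162, 74.1 and 96.9 against 247, 238, 265 and 214 and fell by 1.04 (adjusted p = 0.0246). Mrpl18, a protein of the mitochondrial ribosome, fell on both of its probe sets, by 0.99 and by 0.77 (adjusted p = 0.00317 and 0.00733). Fbn2, the 1 called gene of 56 matrix genes, encodes a fibrillin and fell by 0.96 (adjusted p = 0.0367), with 2 of the 4 treated arrays under 33.7. The matrix count was 0 without any single array other than untreated array A. Tbl1xr1, part of a corepressor complex, and Galnt11, an enzyme that starts O-glycans, fell by 0.95 and by 0.91 (adjusted p = 0.0114 and 0.0496). The call of Galnt11 was lost in 14 of 19 other settings.

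Several programmes that ER stress can touch showed few or no calls. Of 22 cholesterol synthesis and uptake genes, Elovl6, a fatty acid elongase, fell by 0.88 (adjusted p = 0.0496), and the median was -0.01. Its call was lost without any single array other than untreated array C. None of 12 reported substrates of IRE1-dependent decay was called (median -0.10), nor any of 25 BCL2 family and caspase genes, 25 NRF2 antioxidant genes, 20 ribosomal protein genes, 46 proteasome and ubiquitin-conjugating genes or 26 cytosolic heat shock genes. Of 52 respiratory chain genes, Ndufa5, a complex I subunit, fell by 0.60 (adjusted p = 0.00889). None of 7 stress sensor genes was called, and Eif2ak3, which encodes PERK, differed by 0.42 (adjusted p = 0.476). A call missed at this size of experiment does not show that a gene did not change.

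The same 4 h of tunicamycin in wild type cells was set beside this response. There limma called 131 probe sets (2.02%), 111 higher and 20 lower, and by gene 97 were higher (1.77%) and 18 lower (0.328%). The wild type count was 72, 87 or 82 without untreated array A or 4 h array A or D. These 2 responses share no array. Of the 99 probe sets called in CHOP-/- cells, 56 were called in wild type cells too, which is 56.6% of the CHOP-/- calls and 42.7% of the wild type calls, and 95 of the 99 had the same sign in wild type cells, against 59.6% of all tested probe sets. Of the 66 that rose in CHOP-/- cells, 49 were called in wild type cells, and the median log2 change of all 66 was 0.91 in CHOP-/- cells and 0.90 in wild type cells. Of the 33 that fell, 7 were called in wild type cells, and the medians of all 33 were -0.92 in CHOP-/- cells and -0.31 in wild type cells. Because the members were chosen on the CHOP-/- change, a smaller value in wild type cells is favoured by the choice itself.

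The test of the difference between the 2 responses called no probe set of 6500 (0.00%) by limma. An unadjusted p under 0.05 was seen in 249, fewer than that threshold alone gives on average when nothing differs. The closest was Ddit3, with log2 values after tunicamycin of 0.92 in CHOP-/- cells, where it did not pass, and 3.60 in wild type cells, a difference of -2.68 (adjusted p = 0.109, 95% interval -3.70 to -1.65). It passed when the pseudocount was 20. The next lowest adjusted p was 0.929. The intervals of single genes were wide. For Herpud1 the difference was -0.25 (-0.57 to 0.06), for Atf4 0.02 (-0.26 to 0.31), for Hspa5 -0.18 (-0.47 to 0.12) and for Creld2 -0.52 (-1.26 to 0.21). Genes held to depend on CHOP did not pass either. For Ppp1r15a the rise was 1.09 in CHOP-/- cells and 1.74 in wild type cells, a difference of -0.66 (-1.23 to -0.08, adjusted p = 0.997). For Trib3 the rise was 1.34 and 1.94, a difference of -0.60 (-1.38 to 0.18, adjusted p = 0.997). For Ero1a the change was 0.11 and 0.61, a difference of -0.50 (-0.93 to -0.07, adjusted p = 0.997). A p that misses the threshold does not show that the genotypes responded alike.

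Between the genotypes, the mitosis genes were set side by side. Their median log2 change was -0.56 in CHOP-/- cells and -0.01 in wild type cells, with 5 called lower in CHOP-/- cells and 0 in wild type cells. The median difference was -0.54, and 31 of 33 differences were negative, but none passed on its own (lowest adjusted p = 0.997). The 33 differences come from the same arrays, so their signs are not independent. The count of signs is a description with no test, and no share over all genes is given beside it. Mki67 changed by -1.20 in CHOP-/- cells and 0.07 in wild type cells, with 292, 221, 179 and 186 on the wild type 4 h arrays and 265, 131, 291 and 158 on the untreated wild type arrays. Its difference was -1.27 (-2.03 to -0.52). Pclaf changed by -1.28 and -0.20, a difference of -1.08 (-1.62 to -0.53). Untreated CHOP-/- array C, described above, enters each of these differences. Among rises, Tnfaip3 changed by 1.53 in CHOP-/- cells and 0.38 in wild type cells, and its difference of 1.15 (0.11 to 2.20) did not pass (adjusted p = 0.997).

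**Figure D4:**
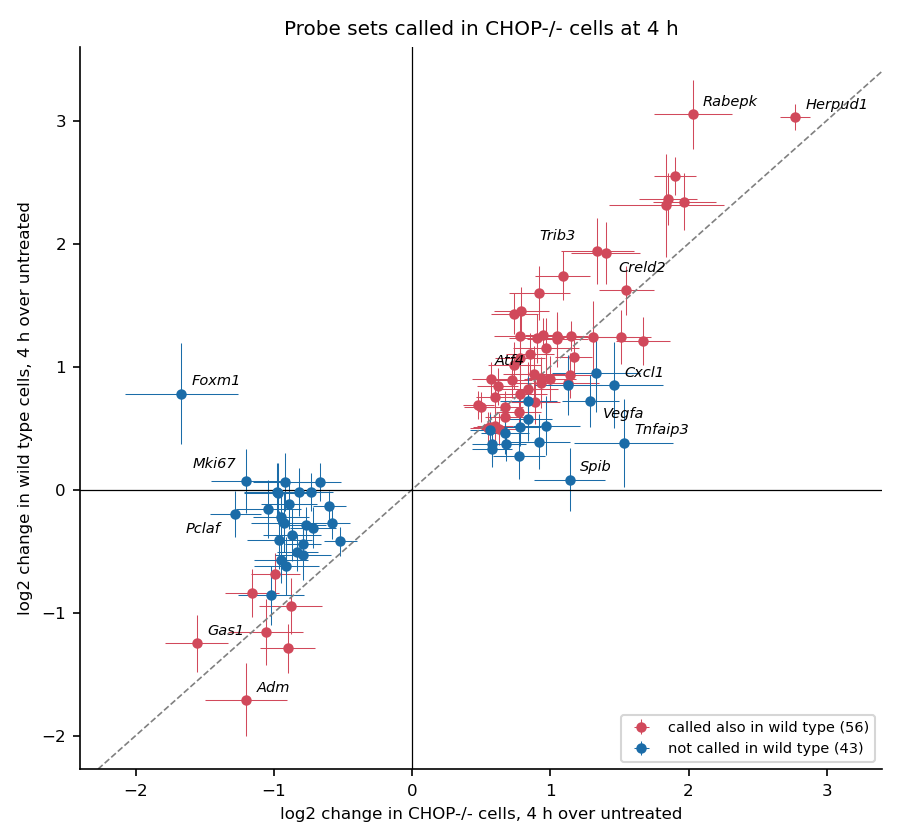
Log2 change of the 99 probe sets called in CHOP-/- cells, in CHOP-/- cells on the horizontal axis and in wild type cells on the vertical axis, with standard errors as bars and a dashed line where the responses are equal. Most rises lie along the line, and most falls lie nearer to 0 in wild type cells, where 43 of the probe sets were not called.

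CHOP-/- cells were also measured at 8 h, which places the 4 h state in time. Between 4 h and 8 h, 352 probe sets (5.42%) changed, 219 upward and 133 downward, or 232 and 55 with arrays centred on their median. The count was 136 or 161 without 4 h array C or D, and 209, 195 or 174 without 8 h array A, C or D. Against untreated cells, 399 genes were higher at 8 h (7.28%) and 369 were lower (6.73%), a comparison that shares the untreated arrays with the 4 h response. Of the 99 probe sets called at 4 h, 25 changed again by 8 h. Of these 25, 16 had risen and rose further, 3 had risen and came back down, 3 had fallen and fell further, and 3 had fallen and came back up. The 4 h change and this step share the 4 h arrays, so these tallies are a description with no test, and no value expected without change was computed.

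Among probe sets called at 4 h, the largest further rises were those of Creld2, Rabepk, Dnajb9 and Dnajc3. These genes were lower on 4 h arrays C and D than on A and B, which lowers the 4 h mean that the steps start from. Creld2 averaged 339.8 ± 26.5 untreated, 988 ± 522 at 4 h and 3571 ± 415 at 8 h (SD, n = 4 each), and the step after 4 h was 2.0 on the log2 scale (adjusted p = 4.91e-05). Rabepk rose by a further 1.96, the dimmer probe set of Dnajb9 by 1.90 and the called probe sets of Dnajc3 by 1.45 and 1.39 (adjusted p = 0.000212, 0.00941, 0.000972 and 0.0121). Ero1b, not called at 4 h, had a larger step of 2.77 (adjusted p = 6.43e-05). Pdia4 and Sel1l rose by a further 1.22 and 1.13 (adjusted p = 0.000449 and 4.33e-05). Herpud1, at 4635 ± 626 at 4 h, averaged 5277 ± 540 at 8 h and did not change further by the test (0.22, adjusted p = 0.265), nor did Atf4 (0.12, adjusted p = 0.546) or Trib3 (0.38, adjusted p = 0.48).

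Among probe sets called at 4 h, the largest steps down were those of Cxcl1, Tnfaip3 and Rgs16. Idi1, a cholesterol synthesis gene, and Id1, an inhibitor of differentiation, were not called at 4 h and had steps of -2.05 and -1.98 (adjusted p = 1.22e-05 and 1.58e-06). Cxcl1 averaged 672 ± 337 untreated, 1791 ± 682 at 4 h and 326 ± 149 at 8 h, a step of -2.48 after 4 h (adjusted p = 0.000212). Tnfaip3 averaged 101 ± 53, 283 ± 123 and 79.8 ± 24.3 at the same times, a step of -1.69 (adjusted p = 0.00708). Rgs16, a brake on G protein signalling that rose at 4 h (0.97, adjusted p = 0.0436), had a step of -1.39 (adjusted p = 0.00136). Elovl6 and Synpo, which had fallen, fell further, with steps of -0.90 and -0.76 (adjusted p = 0.0211 and 0.0226). The mitosis gene Mki67 averaged 204 ± 98.3 untreated, 81.7 ± 18.6 at 4 h and 95 ± 13.7 at 8 h, with no further change by the test (0.26, adjusted p = 0.648).

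**Figure D5:**
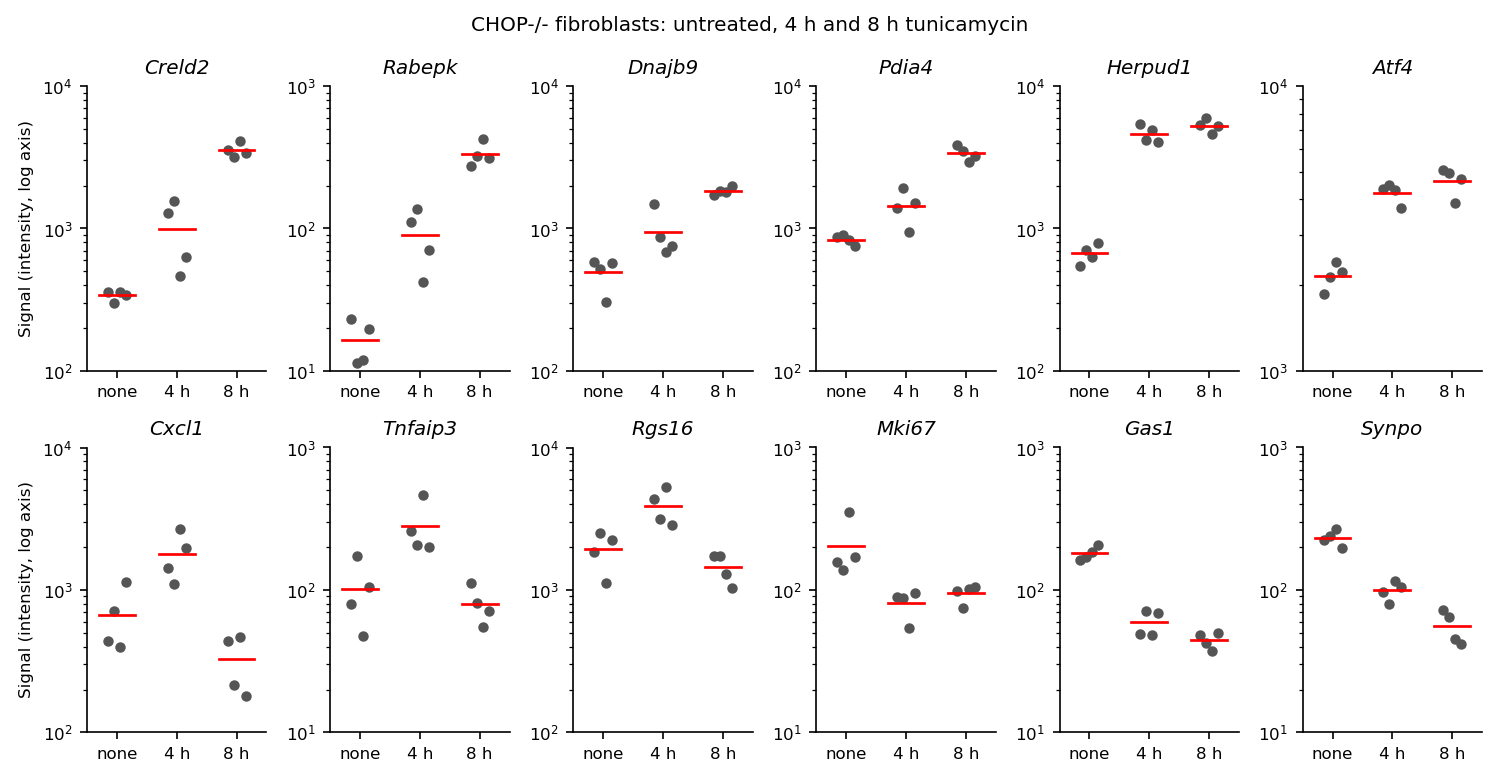
Signals of 12 genes at each time in CHOP-/- cells (untreated, 4 h, 8 h), on a log axis, with a red line at the mean of 4 arrays. By their means, Creld2, Rabepk and Pdia4 climb at each step and Cxcl1 and Tnfaip3 are highest at 4 h. Herpud1 and Atf4 are raised at 4 h, and their step from 4 h to 8 h was not called.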

How the data were processed

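RNA was measured on 24 arrays, 4 in each of 6 groups, and 8 of them are the subject here. For each of 12488 probe sets the authors deposited an intensity on a linear scale. From the values, the authors had scaled each array to a trimmed mean (2% removed at each end) of 250.1 to 250.2. Software is not named in the sources used here. Probe sets were named through the annotation supplied for the array, which gave 1 symbol to 10855, several to 396 and none to 1237. Without 66 controls, 10833 with 1 symbol remained, and 10817 matched the RefSeq gene table. They stood for 8251 genes.

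Signals were raised by a pseudocount of 5.7, their 20th percentile, log2 values were quantile normalized, and the 6500 probe sets whose mean log2 exceeded 5.299 (the 40th percentile, a signal of 33.7) were tested. R 4.3.3 and limma 3.58.1 fitted 6 group means to all 24 arrays, and variances were shrunk toward a trend on intensity (18 residual and 5.1 prior degrees of freedom). Fold changes are on the log2(signal + pseudocount) scale, which understates those of dim genes. Calls had a two-sided Benjamini-Hochberg adjusted p under 0.05. The median SE was 0.19 for a response and 0.27 for a difference of responses. The number of arrays limits the precision. The fit was tested on simulated data. Of the 8 arrays, none was dropped or imputed.

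The members and the gene lists were chosen with earlier results of these data known. Named genes were a fixed set of 17 stress genes, the 15 largest rises and 15 largest falls among called, non-overlapping probe sets, the 5 largest further changes in each direction at 8 h among those called at 4 h, called differences between genotypes (there were 0), and up to 6 genes a list with the smallest adjusted p. The brightest tested probe set stood for its gene. Of 21 called genes with several tested probe sets, 6 had all of them called and 2 had probe sets of opposite sign. Chac1 had no tested probe set. Ddit3 was also tested by an exact permutation of arrays. Letters A to D could mark pairs. Residuals of arrays with the same letter correlated at 0.322 to 0.559 between wild type 4 h and untreated arrays. Between the CHOP-/- groups they correlated at 0.436, -0.348, -0.227 and 0.391. These mixed signs neither show nor exclude a pairing of the arrays described here. Alternatives were other scalings, pseudocounts, filters, array weights, fits of fewer groups, 1 probe set per gene, a replicate block and leaving out each array. Figures were drawn with Python 3.11.15 and matplotlib 3.10.9.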

Additional observations from a re-analysis of the deposited data

Results flagged for a closer look

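Among 104 groups of 4 arrays (the CHOP-/- 4 h and untreated values of 52 named probe sets), 4 held 1 array far from the other 3 by Dixon's test on normalized log2 values, where chance flags about 1 in 20. The signals printed here are the deposited ones, on which the distances can differ from those on the normalized scale. Atf4 gave 4492.8 on CHOP-/- 4 h array B, with the others between 3724.4 and 4338.5. On the normalized log2 scale Atf4 was 1.18 above the untreated mean on array B, against 0.83 to 0.88 on the others. Mki67 gave 54.2 on 4 h array C, against 88.1 to 95.5 on the others. Asns gave 4999.3 on untreated array C, against 3028.4 to 3986.5 on the others. The brighter Dnajb9 probe set gave 304.7 on untreated array C, against 519.0 to 577.2 on the others.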

How the results depend on the processing

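Of 52 named probe sets, 41 were called in CHOP-/- cells at 4 h, 15 of these stayed called in all settings that could be run, and no log2 change reversed its sign in 20 settings. The calls of Herpud1, Atf4, Gadd45a, Siah2, Vegfa, Piga, Nfil3, Txnip, Rabepk, Gas1, Pclaf and Synpo held in all of them, and those of Ppp1r15a, Trib3 and Creld2 in all but 1. The count of 99 became 58 with the deposited scaling alone, 50 with arrays centred on their median, 61 with no filter, 60 with a filter at the 60th percentile and 25 with only the groups compared, and it lay between 58 and 81 when each array was left out. Fewer arrays or other numbers of probe sets enter the filter, subset and leave-out fits, and the cause of the other shifts was not tested. The wild type count of 131 became 87 with median centring, 77 with only the groups compared and 202 with array weights, and lay between 72 and 121 without single arrays. The difference of responses gave 1 call, Ddit3, with a pseudocount of 20 and 0 otherwise. The 8 h against 4 h count of 352 became 170 with only the groups compared and lay between 136 and 444 without single arrays. With letters as a replicate block the counts were 132 for the CHOP-/- 4 h response, 160 for wild type at 4 h and 0 for the difference. They were 1020 for CHOP-/- at 8 h and 445 for 8 h against 4 h. Of the group pairs compared, only wild type 4 h and untreated arrays had positive same-letter correlations for all letters. With 650 probe sets of several or no gene name added, a setting chosen after seeing the data, 8 of these were called higher and 0 lower. Signals under 33.7 on some arrays limit the size of change for Rabepk, Ddit3, Ero1b, Nr2f1, Foxm1, Fbn2, Adm and Rpa3.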

Other observations

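Zinc finger genes were frequent among the rises. This group was formed after the values were seen, from symbols that begin with Zfp, Zkscan or Zscan, so its count describes these data and is no test. Of 64 such genes, 8 rose and none fell in CHOP-/- cells at 4 h (12.5%, against 1.0% of all genes), with a median log2 change of 0.29, and between 4 and 9 rose when single arrays were left out. Zfp105 gave 206, 289, 199 and 252 at 4 h and 117, 87.8, 119.7 and 101 untreated and rose by 1.15 (limma adjusted p = 3.09e-06). Zfp110 gave 149, 184, 194 and 213 against 100.1, 78.2, 95 and 84.6 and rose by 1.05 (adjusted p = 0.000743). In wild type cells 13 rose with a median of 0.45, and in CHOP-/- cells at 8 h 24 rose. Over all genes, 1.77% rose in wild type cells at 4 h and 7.28% in CHOP-/- cells at 8 h. Zinc finger genes resemble each other in sequence, and whether a probe set reads more than 1 of them was not tested.

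Other genes chosen after their values were seen also differed by a large step. Clk4, a kinase of splicing factors, rose by 1.14 on 1 probe set (adjusted p = 0.000925) and differed by 0.86 on its brighter one (adjusted p = 0.0644). Arntl, a core clock gene, gave 662, 664, 433 and 519 at 4 h and 366, 277, 236 and 307 untreated and rose by 0.95 (adjusted p = 0.000236). Foxm1, a transcription factor of mitotic genes, gave 25.4, 12.5, 48.7 and 6.0 at 4 h, against 112, 54.5, 98.8 and 40.9 untreated, with most treated arrays under 33.7. It fell by 1.67 (adjusted p = 0.0367) although the groups overlapped, its brighter probe set differed by -0.30 (adjusted p = 0.672), and its difference from the wild type response was -2.45 (95% interval -3.65 to -1.26, adjusted p = 0.929).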
